A study of Mus musculus with 6 samples.

Results

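The genes described here are 9 genes by which macrophages at the brain's borders and monocytes that enter from blood are recognised. They were taken from the deposited table by gene name, and all 9 of 9 were found among its 41386 genes. Mrc1, Cd163, Pf4, Lyve1 and Ms4a7 were treated as the 5 border macrophage genes, and Ccr2, Lyz2, Chil3 and Arg1 as the 4 monocyte genes. RNA-seq libraries came from hippocampi of wild-type C57BL/6 mice aged 56 days. In the ischemia/reperfusion (I/R) group, 3 libraries, a filament blocked the middle cerebral artery for 1.5 h and reperfusion lasted 24 h. In the sham group, also 3 libraries, the operation was done without occlusion. Per the study's methods the mice were C57BL/6J males, the hippocampus was taken from the operated side and each library pooled several hippocampi, so the errors below are spreads between pools.

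Border macrophages live outside the brain tissue proper, in the meninges, around blood vessels and in the choroid plexus, and differ from microglia in carrying scavenger and hyaluronan receptors. Classical monocytes circulate in blood, leave the marrow and enter injured tissue through the chemokine receptor Ccr2, and change into macrophages there. None of the 9 genes is restricted to a single cell type. Pf4 is also a platelet gene, Lyve1 a lymphatic endothelial gene, Lyz2 is made by neutrophils and activated microglia, and Arg1 and Chil3 can be made by neutrophils and other macrophages. In bulk tissue, more cells of a type and more RNA per cell cannot be told apart.

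Of the 9 genes, 8 were higher after I/R and 0 were lower, where a call needed an adjusted p under 0.05 by edgeR's quasi-likelihood test and a fold over 1.2. Over all 18569 genes tested, 21.8% were called higher and 19.9% lower by the same rule. With library size alone in place of composition scaling, 34.1% of all genes were called higher and 10.9% lower, and the same count of 8 of 9 genes was called higher. Arg1 and Chil3 had the largest fold changes, Pf4 and Ccr2 rose about 10-fold, and Mrc1 and Cd163 rose by a little over 2-fold. Ms4a7 was not called. All 9 genes passed the filter on low counts, and their median log2 fold change was 2.67, against 0.03 over all genes tested. In 8 of 9 genes every I/R library lay above every sham library, which held for 29.3% of all genes tested. With 3 libraries against 3, an exact permutation test cannot give a p under 0.1, and it gave 0.1 for each of these 8 genes.

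**Figure D1:**
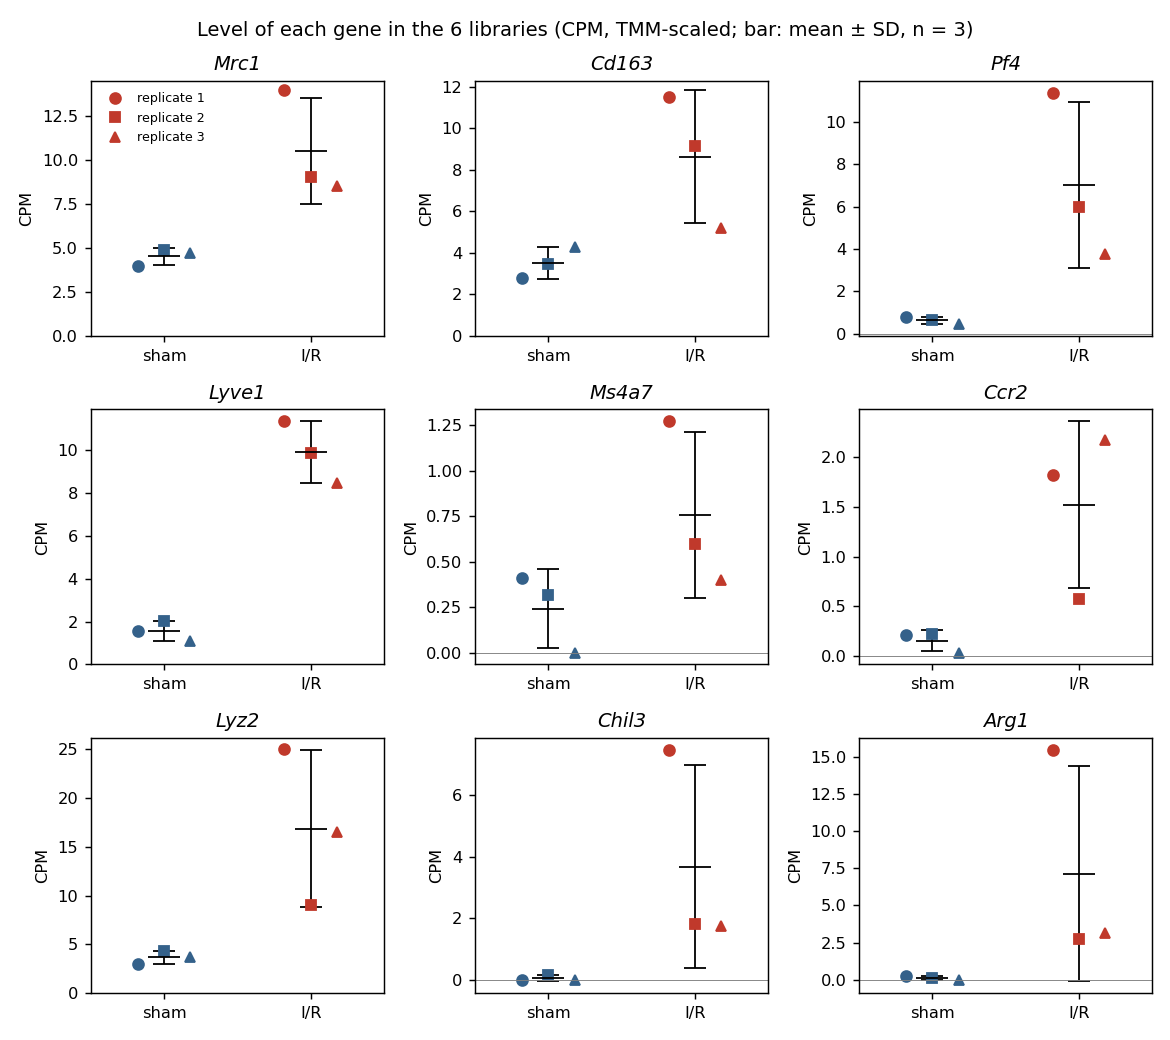
Level of each of the 9 genes in each library, in CPM (vertical axis from 0). Points are libraries, with the marker giving the replicate number, and bars are the mean ± SD of 3 libraries. The groups overlap in Ms4a7 only, and I/R replicate 1 is the highest library in 8 of 9 genes.

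The border macrophage genes were read first. Mrc1 encodes the mannose receptor CD206, an uptake receptor for sugar-bearing ligands. It lies on chromosome 2, plus strand, at 11304507 to 11409556 of the BALB/cJ assembly, whose coordinates the table uses. Mrc1 had 636, 360 and 341 counts in I/R replicates 1, 2 and 3 and 154, 199 and 162 counts in sham replicates 1, 2 and 3. I/R replicate 1 stood above the other two I/R libraries, which were alike, and the groups did not overlap. In CPM, the counts relative to the scaled library total, the mean level was 10.5 ± 3.02 CPM (SD, n = 3) after I/R and 4.52 ± 0.504 CPM (SD, n = 3) in sham. The log2 fold change of Mrc1 was 1.22 (SE 0.22, adjusted p = 0.00423 by edgeR), a 2.33-fold rise.

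Cd163 encodes the scavenger receptor that takes up hemoglobin bound to haptoglobin (chromosome 6, plus strand, 122329068 to 122356444). It had 524, 366 and 208 counts in the I/R libraries and 108, 141 and 148 counts in the sham libraries. I/R replicate 3 lay close to the sham libraries without overlapping them. Mean levels of Cd163 were 8.62 ± 3.19 CPM and 3.51 ± 0.769 CPM (SD, n = 3 each), with a log2 fold change of 1.30 (SE 0.31, adjusted p = 0.0119 by edgeR). Without sham replicate 2 the log2 fold change of Cd163 was 1.28 and the call was lost (edgeR adjusted p = 0.0518).

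Pf4 encodes the chemokine platelet factor 4 (chromosome 5, plus strand, 89138048 to 89138996). Its counts were 519, 239 and 150 after I/R and 30, 27 and 15 in sham. The lowest I/R library was far above the highest sham library, and the I/R libraries themselves were widely spread. Pf4 rose from 0.623 ± 0.170 CPM to 7.04 ± 3.94 CPM (SD, n = 3 each), 11.2-fold, with a log2 fold change of 3.49 (SE 0.46, adjusted p = 0.00124 by edgeR). Among the 10 platelet genes of a list of markers, 5 were tested, of which 1 was higher and 2 were lower. Itga2b, the platelet integrin alpha chain, rose with a log2 fold change of 1.76 (edgeR adjusted p = 0.00261), and Gp1bb and Gp5, parts of the platelet receptor for von Willebrand factor, fell by 0.72 and 1.04 on the log2 scale (edgeR adjusted p = 0.00567 and 0.0312). Ppbp, a platelet chemokine encoded beside Pf4, was too low to be tested at 24, 21 and 5 counts after I/R and 0, 2 and 1 in sham. The summed platelet list was 14.3 to 20.9 CPM after I/R and 13.5 to 14.1 CPM in sham. Gp1bb held 4.80 to 5.48 CPM of that sum after I/R and 8.20 to 8.98 CPM in sham. Itga2b held 6.40 to 12.5 CPM after I/R and 2.41 to 2.68 CPM in sham. The sum without Gp1bb was not computed, and the part of platelets in the rise of Pf4 was not tested.

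Lyve1 encodes a hyaluronan receptor of lymphatic endothelium and of a subset of border macrophages (chromosome 7, minus strand, 111207886 to 111220219). It had 518, 394 and 339 counts after I/R and 60, 82 and 38 counts in sham. Its 3 I/R libraries were the most even of the 9 genes, with an SD of 1.45 CPM around a mean of 9.91 CPM, against 1.55 ± 0.457 CPM in sham (n = 3 each). The log2 fold change of Lyve1 was 2.67 (SE 0.25, adjusted p = 0.000439 by edgeR), a 6.34-fold rise with the smallest adjusted p of the 9 genes. Of 5 tested lymphatic genes, 3 were higher and 1 was lower. Flt4 and Sox18, named after their values were seen, rose with log2 fold changes of 1.52 and 1.27 (edgeR adjusted p = 0.00495 and 0.00694). Of 9 genes of a general endothelial list, 7 were higher and 2 were lower. Which endothelium carried Flt4 and Sox18 was not tested. Pdpn, a membrane glycoprotein also made by astrocytes and fibroblasts, rose with a log2 fold change of 2.63 (edgeR adjusted p = 0.000375). Prox1, the transcription factor that defines lymphatic endothelium and is also abundant in dentate granule neurons, fell by 0.77 on the log2 scale (edgeR adjusted p = 0.00255), and Reln, which hippocampal interneurons also make, was not called (log2 fold change -0.20).

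Ms4a7 encodes a membrane protein of the MS4A family that marks border and monocyte-derived macrophages over microglia (chromosome 19, minus strand, 8175961 to 8191375). It had 58, 24 and 16 counts after I/R and 16, 13 and 0 counts in sham, so the groups overlapped. The log2 fold change of Ms4a7 was 1.61 with a 95% interval from -0.10 to 3.31 (edgeR adjusted p = 0.175), and the exact permutation p was 0.2. The interval was built from the SE with the normal distribution. It is narrower than the edgeR test implies, whose unadjusted p was 0.102, so its ends do not bound the change and a fall is not excluded. Ms4a6d, Ms4a6c, Ms4a6b and Ms4a4a, related genes of the same family, rose with log2 fold changes of 5.50, 4.76, 2.90 and 2.12 (edgeR adjusted p = 0.00028, 0.00028, 0.000547 and 0.0093). Ms4a6b and Ms4a4a were named after their values were seen.

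The monocyte genes followed. Ccr2 encodes the receptor by which classical monocytes follow their chemokines (chromosome 9, plus strand, 122248033 to 122259628). Its counts were 83, 23 and 87 after I/R and 8, 9 and 1 in sham, and I/R replicate 2 was the low library. Ccr2 was the only one of the 9 genes in which I/R replicate 1 was not the highest library. It rose from 0.152 ± 0.107 CPM to 1.53 ± 0.841 CPM (SD, n = 3 each), with a log2 fold change of 3.27 (SE 0.71, adjusted p = 0.00809 by edgeR). The ligands of Ccr2 were higher as well, with 3 of 3 tested called. Ccl2 had 2589, 1172 and 1015 counts after I/R and 73, 9 and 0 in sham (log2 fold change 5.70, edgeR adjusted p = 0.00274). Ccl7 had 665, 326 and 278 counts against 26, 1 and 0 (log2 fold change 5.38, edgeR adjusted p = 0.00273). Ccl12, a mouse ligand, had 564, 497 and 821 counts against 6, 3 and 5 (log2 fold change 6.91, edgeR adjusted p = 0.000116). Sham replicate 1 held most of the sham counts of Ccl2 and Ccl7. Ccl8 was too low to be tested, at 23, 2 and 4 counts against 2, 0 and 0.

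Lyz2 encodes lysozyme, an enzyme that breaks bacterial cell walls (chromosome 10, minus strand, 115878197 to 115883811). It was the most counted of the 9 genes in I/R replicate 1, with 1141 counts, and had 359 and 659 counts in I/R replicates 2 and 3 and 116, 174 and 126 counts in sham. I/R replicate 2 was the lowest I/R library for Lyz2, as it was for Ccr2, and still lay above sham. Lyz2 rose from 3.64 ± 0.655 CPM to 16.8 ± 8.05 CPM (SD, n = 3 each), 4.63-fold, with a log2 fold change of 2.21 (SE 0.36, adjusted p = 0.00256 by edgeR).

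Chil3 encodes the chitinase-like protein Ym1, secreted by myeloid cells (chromosome 3, minus strand, 103881875 to 103904005). It had 340, 72 and 70 counts after I/R and 0, 7 and 0 in sham. I/R replicate 1 held 67.8% of the Chil3 level summed over the I/R libraries, and sham replicate 2 held every sham count. The log2 fold change of Chil3 was 5.85 (SE 1.06, adjusted p = 0.00391 by edgeR). Without sham replicate 2 all remaining sham libraries were at 0, and the I/R mean was then at least 44.8-fold higher than a floor of 3 counts per library.

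Arg1 encodes arginase 1, which splits arginine into ornithine and urea (chromosome 10, minus strand, 22335026 to 22348993). It had 706, 110 and 126 counts after I/R and 9, 4 and 0 in sham. I/R replicate 1 held 72.4% of the Arg1 level summed over the I/R libraries and was 5.26 times the mean of the other two. The mean after I/R, 7.14 ± 7.25 CPM (SD, n = 3), had an SD as large as itself, against 0.110 ± 0.116 CPM in sham (SD, n = 3). The log2 fold change of Arg1 was 5.95 (SE 1.01, adjusted p = 0.00311 by edgeR), and without I/R replicate 1 it was 4.67. Sham means of Arg1 and Chil3 lay near 0.0793 CPM, the level of a gene at 3 counts, so the size of both folds rests on few sham counts.

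**Figure D2:**
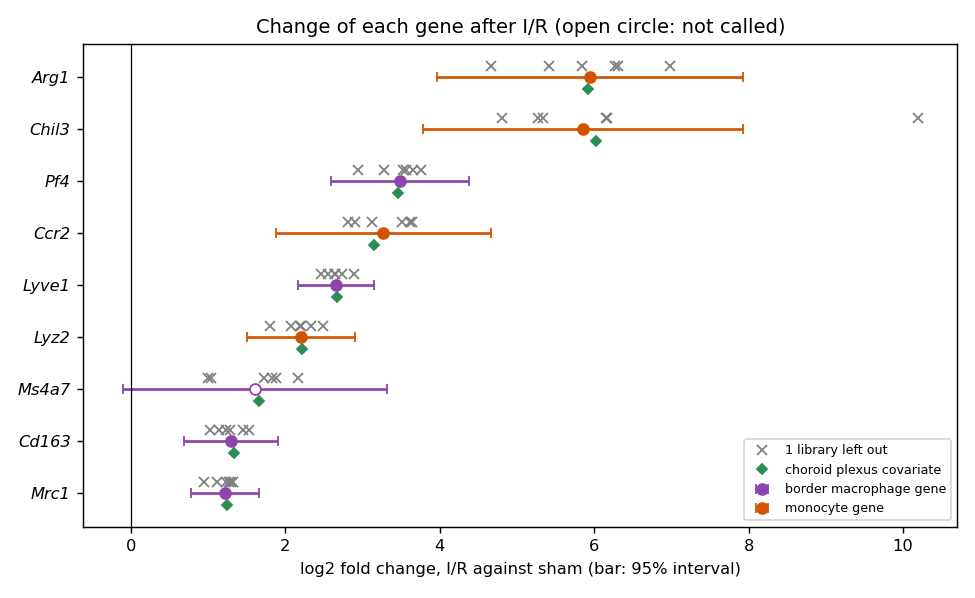
Log2 fold change of each gene (horizontal axis, I/R against sham), with border macrophage genes in purple and monocyte genes in orange. Bars are 95% intervals by the normal distribution, which are narrower than the edgeR test implies. Crosses are fits with 1 library left out and diamonds are fits with the summed choroid plexus level as a covariate. All points lie above 0, the bar of Ms4a7 crosses 0, and the cross of Chil3 at 10.19 is the fit without sham replicate 2, when sham was at 0.

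Reads of Lyz2 and Chil3 could be shared with near-identical neighbours, and the start of their coding sequences shows how alike the copies are. The first 90 coding bases are printed 5′ to 3′ from GENCODE M21 transcripts on GRCm38, with bases that differ within a pair in capitals.
Lyz2: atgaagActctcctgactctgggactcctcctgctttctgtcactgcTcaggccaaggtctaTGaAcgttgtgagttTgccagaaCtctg
Lyz1: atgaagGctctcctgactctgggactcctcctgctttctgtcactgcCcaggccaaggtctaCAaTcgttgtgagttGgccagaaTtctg
Chil3: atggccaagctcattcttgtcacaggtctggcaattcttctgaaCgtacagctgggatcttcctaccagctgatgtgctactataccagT
Chil4: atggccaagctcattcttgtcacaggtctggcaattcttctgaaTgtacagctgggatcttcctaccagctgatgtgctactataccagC
Lyz2 and Lyz1 differed at 22 of 444 coding bases, of which 7 are among those shown. Chil3 and Chil4 were 94.4% identical over 1206 aligned coding columns. Of all 50-base stretches of the transcripts, 15.4% in Lyz2, 28.5% in Chil3 and 1.91% in Ccr2 also occurred in another gene. The share was 0 in Mrc1, Pf4, Lyve1, Ms4a7 and Arg1. Lyz1 had 4, 0 and 0 counts after I/R and 0, 1 and 0 in sham, and counts of Chil4 were not analysed here. The counts of Lyz2 and Chil3 are therefore uncertain by the reads that could have gone to, or been dropped for, a copy.

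Levels between genes were compared per length, as the deposited FPKM. After I/R, Pf4 and Lyz2 had the highest mean FPKM, 17.3 and 14.7, followed by Arg1 at 7.98, Chil3 at 6.23, Lyve1 at 4.17, Mrc1 at 3.11 and Cd163 at 2.45. Ms4a7 at 0.537 and Ccr2 at 0.474 FPKM came last. Neighbours in this order overlapped between libraries, except that every I/R library of Cd163 exceeded every I/R library of Ms4a7. In sham, Lyz2 was highest at 2.63 FPKM and overlapped none of the others, then came Pf4, Mrc1, Cd163 and Lyve1 between 1.26 and 0.545 FPKM, and Ms4a7, Arg1, Chil3 and Ccr2 were at 0.142 FPKM or less. The FPKM of 6 of the 9 genes used a shorter length than the table's length column. With that column, chosen after seeing the data, Lyz2 (14.7) stood above Pf4 (13.3), Lyve1 (4.17) above Chil3 (2.84), and Ccr2 (0.313) above Ms4a7 (0.237) after I/R.

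The 3 I/R libraries differed in a way that ran through most of the genes. I/R replicate 1 was the highest library in 8 of 9 genes, as in 32.2% of all genes tested and in 73.1% of the 4054 genes called higher. Its excess over the mean of I/R replicates 2 and 3 was 1.24 times in Lyve1, 1.33 in Ccr2, 1.59 in Mrc1, 1.60 in Cd163, 1.97 in Lyz2, 2.34 in Pf4, 2.55 in Ms4a7, 4.21 in Chil3 and 5.26 in Arg1, beside a median of 1.25 over the genes called higher. Summed neutrophil genes were 212 CPM in I/R replicate 1, 90.9 and 64.1 CPM in I/R replicates 2 and 3, and 6.39 to 15.5 CPM in sham. Lcn2, which astrocytes also make, held 79.1% to 85.3% of that sum after I/R, and without it, an alternative chosen after seeing the data, the neutrophil sum was 44.3, 13.4 and 12.7 CPM after I/R and 6.04 to 7.35 CPM in sham. Summed hippocampal neuron genes were lowest in I/R replicate 1, at 2073 CPM against 3769 and 4177 CPM, and 7169 to 7464 CPM in sham.

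**Figure D3:**
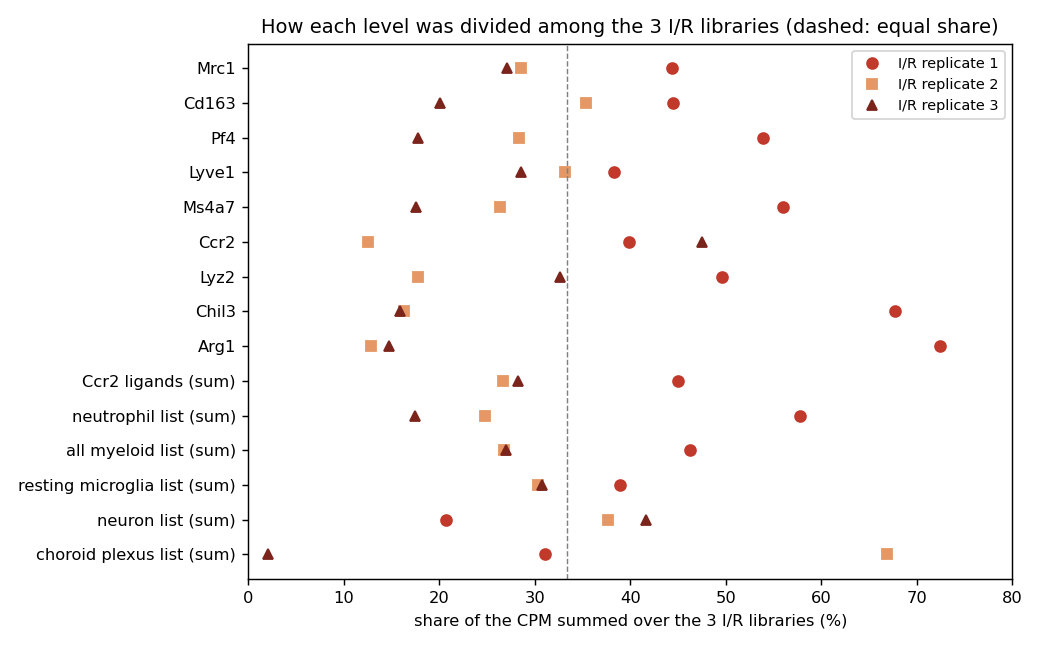
Share of the CPM summed over the 3 I/R libraries that each I/R library held (horizontal axis, %), for the 9 genes and for summed marker lists. The dashed line marks equal shares. I/R replicate 1 held 72.4% of Arg1, 67.8% of Chil3, 57.8% of the neutrophil list (62.9% without Lcn2, which holds most of that sum) and 20.7% of the neuron list.

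Of 8 tested neutrophil genes, 7 were highest in I/R replicate 1, and Mpo was not. The same library was highest in 8 of the 9 genes described here, among them Arg1, Chil3 and Lyz2. It was also highest in 73.1% of all genes called higher and in 32.2% of all genes tested. Of the 8 tested neutrophil genes, from a list of 15, 5 were higher and 0 were lower. S100a8, a calcium-binding protein of neutrophils and monocytes, had 671, 143 and 118 counts after I/R and 20, 7 and 5 in sham (log2 fold change 4.66, edgeR adjusted p = 0.00329), and of 16192 named genes its profile over the 6 libraries was the nearest to that of Arg1. Lcn2, an iron-trafficking protein also made by astrocytes, had 7644, 3099 and 2053 counts against 318, 60 and 12 (log2 fold change 4.88, edgeR adjusted p = 0.00772). Ly6g, which defines mouse neutrophils, had 1 count in I/R replicate 1 and 0 in the other 5 libraries, and the granule genes Elane, Camp, Ltf and Ngp had 5 counts or fewer in every library. Itgam, from a list of general myeloid genes, had 0 counts in all 6 libraries, so counts at or near 0 were not read as absence of a cell type. S100a9, Retnlg and Mmp8 were also called higher, with log2 fold changes of 3.78, 3.78 and 3.02 (edgeR adjusted p = 0.0118, 0.0175 and 0.023). Cxcr2 was too low to be tested, at 87, 10 and 9 counts after I/R and 0 in every sham library. S100a9, Retnlg, Mmp8 and Cxcr2 were named after their values were seen. The part of neutrophils in the rise of Arg1, Chil3 and Lyz2 was not tested.

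Choroid plexus, where border macrophages live, was unevenly represented. Its summed markers were 2308, 4969 and 151 CPM in I/R replicates 1, 2 and 3 and 179, 3846 and 6370 CPM in sham replicates 1, 2 and 3, so that I/R replicate 3 and sham replicate 1 held little of it. Ttr, which carries thyroid hormone and is the most abundant of these markers, ran from 385 to 140679 counts. In the pair of libraries with little choroid plexus, I/R replicate 3 over sham replicate 1 was 2.16 in Mrc1, 1.88 in Cd163, 4.88 in Pf4, 5.52 in Lyve1, 5.55 in Lyz2, 10.6 in Ccr2 and 13.7 in Arg1, with no test. Ms4a7 gave 0.976 in that pair, and Chil3, at 0 counts in sham replicate 1, gave no ratio. Between the means of the libraries with much choroid plexus, I/R replicates 1 and 2 over sham replicates 2 and 3, the same ratio was 2.39 in Mrc1, 2.66 in Cd163, 15.8 in Pf4, 6.80 in Lyve1, 5.86 in Ms4a7, 4.29 in Lyz2, 9.58 in Ccr2 and 186 in Arg1. In Chil3 it was 53.8. Among the genes with a ratio in both sets, Pf4, Ms4a7 and Arg1 differed most between them. I/R replicate 1, the highest library for all 3 of these genes, belongs to the second set. With the summed choroid plexus level as a covariate, 8 of 9 genes were still called higher. With only the 4 libraries that held much choroid plexus, Ccr2 lost its call (log2 fold change 3.17, edgeR adjusted p = 0.0515).

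The genes were next set against other myeloid genes. The summed CPM of the 5 border macrophage genes was 49.5, 34.6 and 26.4 after I/R and 9.43, 11.4 and 10.6 in sham. Per 100 CPM of microglial marker genes (P2ry12, Tmem119, Cx3cr1 and others) it was 4.95, 4.44 and 3.34 after I/R and 1.53 to 1.66 in sham. Sparc, which endothelium and astrocytes also make, held 59.9% to 66.7% of the microglial sum in every library, and without it the ratio was 12.9, 13.3 and 8.32 after I/R and 3.90 to 4.24 in sham. A list of general myeloid genes, such as Cd68, Csf1r and Spi1, is called the shared myeloid genes here. It does not measure the RNA of all myeloid cells. Per 100 CPM of these genes, the border macrophage sum was 8.71, 10.5 and 7.93 after I/R. In sham it was 6.88 to 7.57, a much smaller gap. The 4 monocyte genes gave 8.76, 4.28 and 7.08 per 100 CPM of the shared myeloid genes after I/R and 2.49 to 3.09 in sham. None of these ratios overlapped between groups. Of 11 tested shared myeloid genes, 10 were higher and 0 were lower, with the largest rise in Cd14. Itgam, also on this list, had 0 counts in every library and was not tested. Cd14 was 180, 82.8 and 70.1 CPM after I/R, of list sums of 569, 330 and 332.5 CPM. In sham Cd14 was 2.24 to 4.38 CPM. The ratios per 100 CPM of the shared myeloid genes were not recomputed without Cd14. Of 13 microglial genes, 4 were higher and 6 were lower, with the largest fall in Slc2a5, a fructose transporter (log2 fold change -3.21, edgeR adjusted p = 0.00127), and the largest rise in Fcrls, an Fc receptor-like gene (log2 fold change 2.22, edgeR adjusted p = 0.000662).

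Other genes of the same cells were counted from lists. Of 12 tested further border macrophage genes, 9 were higher and 0 were lower, with a median log2 fold change of 2.12. Ms4a6c had the largest rise. F13a1, Stab1, Folr2, Siglec1, Dab2, Ccl24, Ms4a6b and Cd36 were the other 8, named after their values were seen. Cbr2 (18, 30 and 17 counts against 5, 15 and 24), Maf and Fcna were not called. Mgl2 was too low to be tested, at 4, 2 and 1 counts after I/R and 7, 11 and 8 in sham. Meningeal and fibroblast genes, which share the location of these cells, had 6 higher and 1 lower of 12 tested. Aldh1a2, which makes retinoic acid in meninges, rose with a log2 fold change of 2.82 (edgeR adjusted p = 0.000852), and Ogn, a small proteoglycan, fell by 1.11 on the log2 scale (edgeR adjusted p = 0.0145). The part of meninges in the border macrophage genes was not tested.

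Of 11 tested further monocyte genes, 6 were higher and 2 were lower, with a median log2 fold change of 1.01. Ccr1, a chemokine receptor of monocytes and neutrophils, had 443, 262 and 149 counts after I/R and 10, 7 and 2 in sham (log2 fold change 5.31, edgeR adjusted p = 0.000538). Itga4, an integrin chain of leukocyte adhesion, fell by 1.40 on the log2 scale (edgeR adjusted p = 0.00304). Gda, named after its values were seen, fell by 0.65 (edgeR adjusted p = 0.00721). Mean sham levels were 45.55 CPM in Itga4 and 307 CPM in Gda, against 0.152 CPM in Ccr2. Among the 6 genes called higher, mean sham levels were 95.2 CPM in Fn1, 28.9 CPM in Vcan and 6.685 CPM in Emilin2. In Thbs1, Cd44 and Ccr1 these levels were 3.767, 3.595 and 0.162 CPM. Fn1, Vcan, Emilin2, Thbs1 and Cd44 were named after their values were seen. Which cells carried any of these genes was not tested. Plac8, a further gene of classical monocytes, was too low to be tested, at 17, 0 and 12 counts after I/R and 0 in every sham library. Genes of macrophages that have developed from monocytes had 9 higher and 0 lower of 10 tested. Lgals3 and Gpnmb, counted among these 9, also stood in the list of disease-associated microglial genes. Their log2 fold changes were 5.36 and 3.02, and both were named after their values were seen. Il1rn, the interleukin 1 receptor antagonist, had 1205, 268 and 363 counts after I/R and 0 in every sham library, at least 178-fold higher than a floor of 3 counts per library, and at least 99.5-fold without I/R replicate 1. Retnla, which alternatively activated macrophages make along with Arg1 and Chil3, had 2, 2 and 0 counts after I/R and 1 in each sham library.

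**Figure D4:**
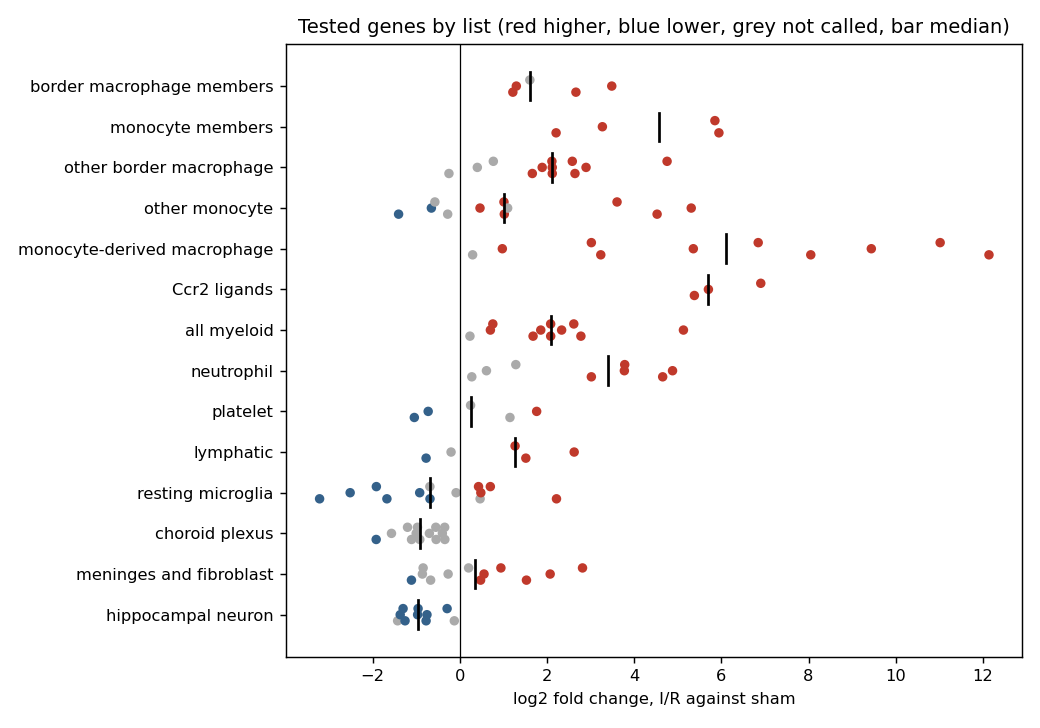
Log2 fold change (horizontal axis) of every tested gene of the border macrophage and monocyte genes and of 12 marker lists. Each point is a gene, red where higher, blue where lower and grey where not called, and the black bar is the list's median. The 9 genes lie to the right of 0 and neuron genes to the left, and points of genes at 0 in every sham library, such as Il1rn, are fitted values with no meaning as a bound.

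The partners of these genes were read from pathway lists. Around Arg1, 11 genes of arginine metabolism were tested, of which 5 were higher and 2 lower. Odc1, which turns ornithine into putrescine, rose 5.40-fold (log2 fold change 2.43, edgeR adjusted p = 0.000375), and Sms, which makes spermine, fell by 1.06 on the log2 scale (edgeR adjusted p = 0.00332). Arg2, the mitochondrial arginase, was not called, with a log2 fold change of -0.07 (SE 0.20). Around Cd163, 5 of 10 heme and hemoglobin genes were higher and 3 lower. Hmox1, heme oxygenase 1, went from 225, 213 and 189 counts in sham to 17085, 4763 and 5377 counts after I/R (log2 fold change 5.25, edgeR adjusted p = 0.000407), and Slc40a1, the iron exporter, fell by 0.97 on the log2 scale (edgeR adjusted p = 0.00869).

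Around Lyve1, 5 of 10 hyaluronan genes were higher and 1 lower. Has2, a hyaluronan synthase, rose with a log2 fold change of 3.36 (edgeR adjusted p = 0.000375), and Has3, another synthase, fell by 0.96 on the log2 scale (edgeR adjusted p = 0.00547). Of 8 tested genes of macrophage growth and polarisation, 4 were higher and 1 lower. Il4ra, the receptor chain for interleukins 4 and 13, rose with a log2 fold change of 3.69 (edgeR adjusted p = 0.000375), and Il34, a ligand of the Csf1 receptor that neurons make, fell by 0.91 on the log2 scale (edgeR adjusted p = 0.00117). Csf1r itself was not called, with a log2 fold change of 0.23 (SE 0.13).

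Bases upstream of the transcript start were read for the 7 genes with a RefSeq promoter entry on GRCm38.p6. Arg1 and Lyve1 had no entry. The 250 bases before the start were searched on both strands for AGGAAGT and the longer GAGGAAGT that contains it (PU.1, the myeloid transcription factor), TTGCGCAA and the looser TTNNGCAA that covers it (C/EBP), the STAT motif, in which TTC is followed after any 4 bases by GAA, ACGTG (HIF), TGANTCA (AP-1) and TATAAA (the core promoter box). AGGAAGT was found in Mrc1, Chil3, Pf4 and Lyz2, 4 of 7 genes, and in 7.69% of 32851 windows over all genes. The 80 bases around each match are printed 5′ to 3′ on the gene's strand, with the match in capitals as its reverse complement.
Mrc1, chr2:14229167-14229246, plus strand: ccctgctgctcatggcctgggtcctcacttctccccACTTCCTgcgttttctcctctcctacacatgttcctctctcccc
Chil3, chr3:106167581-106167660, minus strand: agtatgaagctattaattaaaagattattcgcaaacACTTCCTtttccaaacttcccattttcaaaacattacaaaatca
Pf4, chr5:90772355-90772434, plus strand: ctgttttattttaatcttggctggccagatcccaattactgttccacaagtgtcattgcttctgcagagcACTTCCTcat
Lyz2, chr10:117282329-117282408, minus strand: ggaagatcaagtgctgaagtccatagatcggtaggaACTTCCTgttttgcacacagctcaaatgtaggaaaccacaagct
The match ended 205 bases before the start in Mrc1, 94 in Lyz2, 54 in Chil3 and 4 in Pf4. GAGGAAGT was found in Pf4 (2.44% of windows), TTNNGCAA in Pf4 (9.56%), and the STAT motif and TGANTCA in Ms4a7 (5.85% and 6.75%). TTGCGCAA, ACGTG and TATAAA were found in none of the 7 genes, and in 0.164%, 16.6% and 12.4% of windows. A match describes letters and not binding.

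The genes nearest in profile were found by the Euclidean distance of centred log2 CPM over the 6 libraries among 16192 named genes. A constant of 0.5 CPM was added before the log, which is above the sham means of Ms4a7, Ccr2, Chil3 and Arg1. The 2 nearest were Dennd3 and Spsb2 for Mrc1, Rhod and Sik1 for Cd163, Akap12 and Sdc1 for Pf4, S100a10 and Cd53 for Lyve1, and Asprv1 and Gm26852 for Ms4a7. For the monocyte genes they were Glipr1 and Tlr6 for Ccr2, Lat2 and Htr2b for Lyz2, Gm10382 and Osgin1 for Chil3, and S100a8 and Ccl11 for Arg1. Distances ran from 0.106 (Mrc1 and Dennd3) to 0.631 (Arg1 and Ccl11) on the log2 scale. In no case was another of the 9 genes among the nearest 2, and the closest pair of the 9 was Mrc1 and Cd163, at 0.556.

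Total counts were 37493042 to 44788547 per library. The scaling (TMM) used factors of 1.06 to 1.15 in I/R and 0.908 to 0.920 in sham, and with library size alone the median log2 fold change of all genes moved from 0.03 to 0.28. T, B and NK cell markers were nearly absent, with 2 of 11 genes tested and Lck alone higher (log2 fold change 1.21, edgeR adjusted p = 0.031). Dendritic cell genes had 0 higher and 2 lower of 4 tested, endothelial genes 7 higher and 2 lower of 9, and disease-associated microglial genes 11 higher and 1 lower of 14. The 1 tested red blood cell gene was not called. Hippocampal neuron markers were abundant in every library, and 8 of 10 were lower after I/R.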

How the data were processed

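Per the study's methods, the authors used TopHat 2 for alignment and HTSeq for gene counts; the submitters' processing notes name Bowtie 0.12.2 and mm8, while the deposited table carries BALB/cJ gene identifiers. Strand and multi-mapping settings were not given in the sources used here. The deposited raw counts were used for tests, and FPKM deposited by the authors for levels between genes. The authors' own p-values were left out. The test was that of edgeR 4.0.16 under R 4.3.3 (filterByExpr, TMM, glmQLFit robust, glmQLFTest), I/R against sham, with Benjamini-Hochberg adjustment over 18569 genes, and the code was tested on simulated data. Alternatives used DESeq2 1.42.0, limma 3.58.1, other scalings, filters and left-out libraries. Of the counts, 4.24% to 4.74% lay on rows with no gene name, which stayed in. Floors (3 counts) cover counting error only, and intervals of fold changes include the spread between libraries. These intervals used the normal distribution, which makes them too narrow with 3 libraries per group. Named genes were the members, Ccr2 ligands, the largest called rise and fall of each list, the 2 most abundant genes of the neutrophil, platelet, lymphatic and choroid plexus lists, and the 2 nearest profiles per member. The members and lists were chosen with earlier results of these data known. Same-numbered libraries did not deviate together (correlations -0.139, 0.0426 and -0.236), so numbers were not used as pairs.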

Additional observations from a re-analysis of the deposited data

How the results depend on the processing

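The call of 7 of the 9 genes was the same under every alternative that tested them (Mrc1, Pf4, Lyve1, Lyz2, Chil3 and Arg1 called, Ms4a7 not). Cd163 lost its call without sham replicate 2 (log2 fold change 1.28, edgeR adjusted p = 0.0518) and Ccr2 with the 4 libraries rich in choroid plexus (3.17, edgeR adjusted p = 0.0515). A minimum of 10 counts in every library left 5 of the 9 genes, all 5 called higher. With 1 library left out, 7 to 8 genes were called, and log2 fold changes ranged from 0.95 to 1.32 (Mrc1), 1.03 to 1.53 (Cd163), 2.95 to 3.76 (Pf4), 2.47 to 2.89 (Lyve1), 1.003 to 2.17 (Ms4a7), 2.81 to 3.64 (Ccr2), 1.80 to 2.49 (Lyz2), 4.80 to 10.19 (Chil3) and 4.67 to 6.99 (Arg1). The cause of these shifts was not tested. The count of all genes called was 7756, and 2760 with a fold over 2. Of 836 list counts recomputed, 715 stayed within 1.5 times.

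With the replicate number as a block, 8 of 9 genes were called and the count of all genes called was 6332, and Ms4a7 had a log2 fold change of 1.84 (edgeR adjusted p = 0.103). Libraries shared only a number, so the pairing was not used. Ms4a7 had at most 58 counts in a library, and Ccr2, Chil3 and Arg1 at most 9 in a sham library.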
